A study of Mus musculus with 13 samples.

Results

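The cells described here were splenic B cells of wild-type (WT) genotype after 48 h with lipopolysaccharide (LPS), measured in the 7 libraries labelled WT among the 13 of the series. The members were chosen by the genotype label alone, so all 7 WT libraries were used, and the 6 libraries of the mutant genotype, Whsc1-KO, entered no step. In each WT sample, blood-forming cells from the fetal liver of WT embryos on the C57BL/6 strain had rebuilt the blood of RAG1-KO recipients after lethal irradiation, and B cells were taken from the spleens of these hosts. A RAG1-KO host makes no mature B or T cells of its own, while cells of the host outside the lymphoid lineages can survive irradiation. B cells were purified by magnetic removal of CD43-positive cells and cultured with LPS at 25 µg/ml, and poly-A selected, strand-specific libraries were sequenced as paired reads of 76 bases. The labels give no age or sex and no unstimulated WT sample, so the values are the state at 48 h and not a response to LPS. The design text calls the 7 WT samples independent biological replicates.

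LPS is a component of the outer membrane of Gram-negative bacteria. On mouse B cells it is sensed by Toll-like receptor 4 (TLR4) with its partner MD-2, helped by the related pair RP105 and MD-1. It drives resting follicular and marginal zone B cells into division, starts class switching toward certain IgG classes, and turns a share of the cells into plasmablasts, which switch off B cell factors such as Pax5 and Bach2 and expand the endoplasmic reticulum to secrete IgM.

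The libraries held between 38881663 reads in genes (WT replicate 4) and 53019516 (WT replicate 1), and between 17784 and 19282 genes with a read. Values within a gene are given as the authors' normalized counts, and levels between genes as TPM, the normalized count per kilobase of exon scaled to a fixed sum in each library. Of 47643 gene identifiers, 24649 had no read in any WT library, and 11136 genes lay at 1 TPM or more in every one. The 146 genes at 1000 TPM or more carried 51.0% of the summed level, and the 1038 genes between 100 and 1000 TPM carried 25.0%. In bulk RNA, fewer cells of a kind and less RNA per cell cannot be told apart, and this holds for every level below. The spread of a gene is given as its coefficient of variation (CV), the SD over the mean of the 7 libraries in percent. Among the 10789 genes with a mean normalized count of 100 or more, the median CV was 10.2%, against a median of 2.60% that counting of reads alone gives for the same genes. In this set 70.3% of genes lay within 1.5-fold between their lowest and highest library, and 10.3% spanned more than 2-fold.

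The B cell and division markers were all high. Cd79a (ENSMUSG00000003379.7, chromosome 7 from 24897381 to 24902197, GRCm38), which encodes a signalling chain of the B cell receptor, had 61910, 69759 and 94372 normalized counts in its lowest, median and highest library. Its level was 2924 ± 364 TPM (SD, n = 7), rank 42 of all genes. Ighm, the constant region of the IgM heavy chain (chromosome 12 from 113418558 to 113422730), had 1050108, 1731272 and 2007222 normalized counts, and at 48256 ± 10289 TPM (SD, n = 7) it was second only to the kappa light chain constant gene Igkc. Mki67, a protein of dividing nuclei (chromosome 7 from 135689784 to 135716361), had 28449, 32724 and 39051 normalized counts and 191 ± 31.2 TPM (SD, n = 7), rank 564. Each of these markers was far from 0 in every library, and the labelled cell type was borne out by its markers in all 7.

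Markers of other cells were low with few exceptions. The T cell chains Cd3d, Cd3e, Cd3g and Cd8a averaged under 1 normalized count, as did the NK cell receptor gene Ncr1, the granule enzyme gene Mpo and the platelet chemokine gene Ppbp. Not all markers were near 0: the highest of the T cell list were Cd28 with 64 to 258 normalized counts and the receptor constant gene Trac with 10 to 32, and the highest of the NK list was the perforin gene Prf1 with 69 to 147. In summed level, the 13 T cell markers came to between 3.43 and 8.68 TPM per library, the 9 NK cell markers to between 2.08 and 3.5, and the 12 markers of early B cells and progenitors to between 2.08 and 3.25. The 23 myeloid markers came to between 23.1 and 48.5 TPM, with Itgam at 13.9, Cd68 at 10.6 and the macrophage lysozyme gene Lyz2 at 5.88 TPM. The dendritic cell list reached 267 to 353 TPM through Bst2 at 209 TPM and Flt3 at 84.7 TPM, and the stroma list 65.0 to 78.9 TPM through Pecam1 at 70.3 TPM; Bst2 and Pecam1 are also made by B cells, and Col1a1, a collagen of stroma, was at 0.0176 TPM. The 8 megakaryocyte markers came to between 19.7 and 41.6 TPM, mostly Itgb3 at 23.7 TPM, while Pf4, the defining platelet gene, was at 1.01 TPM. Red cell genes were the least even of these lists. The 11 erythroid markers found came to between 104 and 291 TPM, and the adult globin gene Hbb-bs had 51 to 59 normalized counts in WT replicates 1 to 3, 225 in replicate 7 and 742 to 942 in replicates 4 to 6. The highest erythroid marker, Hbb-bt at 98.4 TPM, did not follow this split, with 740 to 1444 in replicates 1 to 3 and 924 to 1506 in replicates 4 to 6. Globin genes are near-identical copies whose reads may be split between them, and the part of red cell RNA in the results below was not tested.

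**Figure D1:**
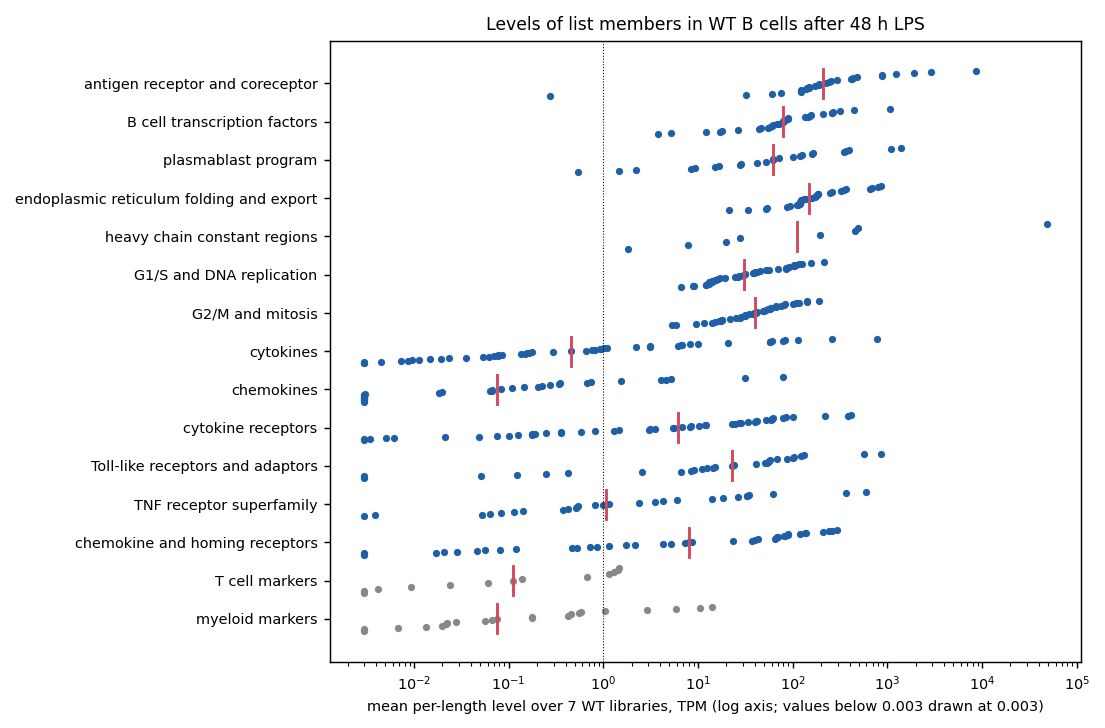
Mean per-length level over the 7 WT libraries (log axis, TPM) of each gene in 15 lists, 1 point a gene, with the list median as a red bar and 1 TPM as a dotted line. B cell, secretory and division genes sit to the right of 1 TPM, while most cytokines, chemokines and markers of T cells and myeloid cells (grey) sit to the left.

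Genes of the antigen receptor and its coreceptors were the most abundant of the B cell lists. Of 28 genes, 27 reached 1 TPM in every library, with a median level of 209 TPM and a median CV of 9.51%. Cd79a lay above Cd79b, the other signalling chain, in all 7 libraries (2924 ± 364 against 1936 ± 111 TPM, SD, n = 7; ratio 1.5; log2 difference 0.59; exact sign-flip permutation test, two-sided, adjusted p = 0.0179 over 31 gene pairs). With 7 libraries 0.0156 is the smallest p this test can give, so an adjusted p of 0.0179 says that all 7 went the same way. Cd74, the invariant chain that guides MHC class II, was the highest of the list at 8650 ± 502 TPM (SD, n = 7). Ms4a1, which encodes CD20, had 40571, 52378 and 58268 normalized counts at its lowest, median and highest. The steadiest member was the adaptor gene Blnk, at 14128, 15675 and 16072 normalized counts and a CV of 4.45%. Fcer2a, the low affinity IgE receptor CD23 of follicular B cells, was the least steady, with a CV of 33.2% and 38062 normalized counts in WT replicate 4 against 16854 to 26945 in the other libraries.

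The octamer, the letters ATGCAAAT read on either strand, is a motif bound by the factors of Pou2f1 and Pou2f2. RefSeq promoters (GRCm38.p6, the 250 bases before the gene's start) were at hand for 21 of the 28 genes, and 1 of them, Blnk, held it, against 1.61% of all 27025 promoters and 1.33% of the 8030 promoters of genes with a mean of 100 or more. It is shown with the motif in capitals, at chr19:40994222-40994471 on the minus strand.
Blnk: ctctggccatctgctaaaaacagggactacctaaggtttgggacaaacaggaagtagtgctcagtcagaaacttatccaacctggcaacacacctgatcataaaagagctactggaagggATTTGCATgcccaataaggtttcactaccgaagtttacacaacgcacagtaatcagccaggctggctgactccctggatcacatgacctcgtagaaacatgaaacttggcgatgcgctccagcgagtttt
The letters stand on the strand opposite to the gene, as ATTTGCAT. A match is a description and not a site of binding.

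Transcription factors of the B lineage were all present: 32 of 32 reached 1 TPM in every library, with a median of 79.3 TPM and a median CV of 10.4%. Pou2af1, the octamer coactivator, led the list at 1078 ± 122 TPM (SD, n = 7), ahead of Spib at 448 ± 49.5 and of Pax5, the keeper of B cell identity, at 319 ± 37.6. The Ikaros gene Ikzf1 lay above its relative Ikzf3 in all 7 libraries (265 ± 23.5 against 151 ± 18.2 TPM, SD, n = 7; log2 difference 0.81; exact sign-flip test, adjusted p = 0.0179), though with the length of the longest transcript the log2 difference was 0.05 and did not pass (adjusted p = 0.578). Pou2f2, which encodes the octamer factor Oct2, was the steadiest, with a CV of 4.50%. Id2, an inhibitor of E proteins, was the least steady at 36.5%, with 89 to 316 normalized counts.

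Opposing factors of the step to plasmablasts were compared in pairs, and 2 of the pairs did not differ beyond their spread. Irf4, which drives that step, and Irf8, which holds it back, averaged 258 ± 63.1 and 264 ± 15.2 TPM (SD, n = 7). Irf4 was the higher of the pair in 3 of 7 libraries, and the log2 difference of -0.06 did not pass (exact sign-flip test, adjusted p = 0.672). The spread of the genes themselves was unlike: Irf4 had 14214, 20946 and 30133 normalized counts at its lowest, median and highest and a CV of 28.1%, and Irf8 had 30272, 31614 and 34783 and a CV of 4.77%. Xbp1, the factor of the secretory program, and Pax5, which represses it, likewise did not differ beyond their spread (394 ± 97.3 against 319 ± 37.6 TPM, SD, n = 7; higher in 4 of 7; log2 difference 0.28; exact sign-flip test, adjusted p = 0.226). These 2 comparisons depend on gene length: both differences passed with the longest transcript (-1.05 for Irf4 against Irf8 and 0.74 for Xbp1 against Pax5) and without division by length (-0.59 and -1.17).

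Prdm1, which encodes the plasma cell repressor Blimp-1, had 6975, 8824 and 15880 normalized counts at its lowest, median and highest. It stood at 99.7 ± 30.2 TPM (SD, n = 7), against 61.1 ± 11.2 TPM for Bach2, which represses it, and 17.1 ± 4.43 TPM for the germinal center factor Bcl6. Against Bcl6 it was higher in 7 of 7 libraries (log2 difference 2.53, and 1.85 with the longest transcript; exact sign-flip test, adjusted p = 0.0179). Against Bach2 it was higher in 6 of 7 (log2 difference 0.68; exact sign-flip test, adjusted p = 0.0346), but the difference turned to -0.16 without division by length. The exception was WT replicate 6, which had the lowest Prdm1 and, at 13429 normalized counts, the highest Bach2. The difference from Bach2 no longer passed when any 1 of the other 6 libraries was left out (adjusted p = 0.0692 each, same exact test). With 6 libraries the smallest p the test can give is 0.0312. Of all 31 pairs 28 passed, 21 with the first gene higher and 7 with the second, and 27 went the same way in all 7 libraries. The share that passes among pairs of genes taken at large was not computed. Whether these counts are a trait of the chosen pairs was therefore not tested, and they are not to be read as one.

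**Figure D2:**
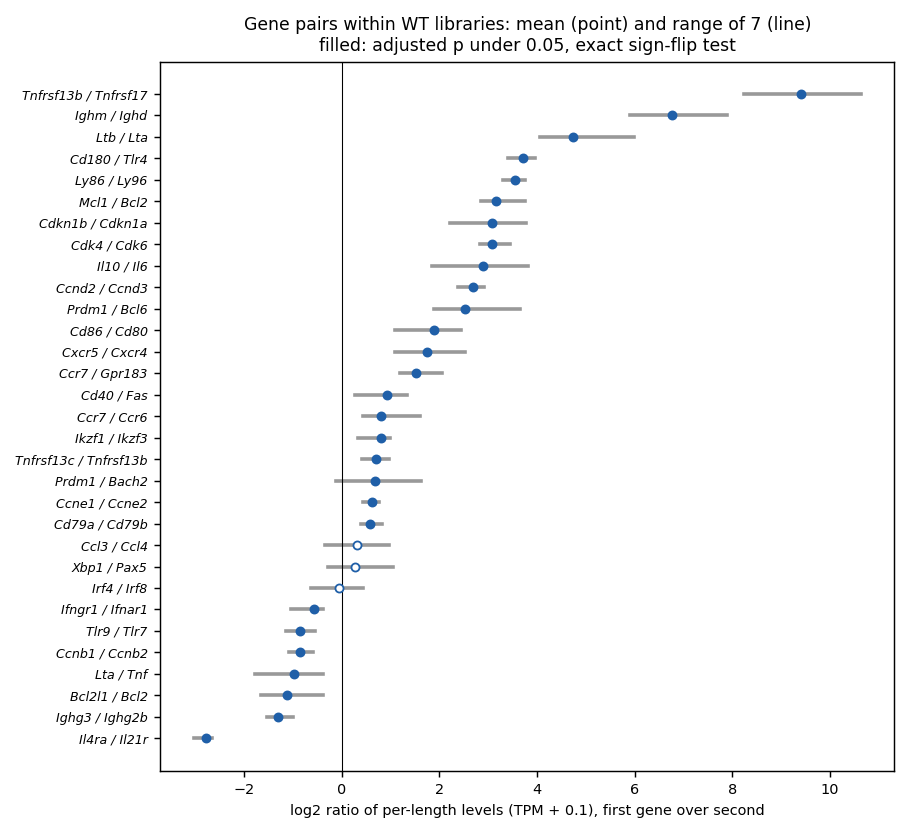
Log2 ratio of per-length levels (TPM plus 0.1), first gene over second, for 31 pairs of genes in the 7 WT libraries, as the mean (point) and the lowest to highest library (line). Filled points passed the exact sign-flip test at an adjusted p of 0.05; Irf4 over Irf8, Xbp1 over Pax5 and Ccl3 over Ccl4 did not.

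Genes of the plasmablast program were present in every library, with a spread well above that of most genes. Of 24 genes, 22 reached 1 TPM in every library, with a median of 62.1 TPM. The median CV of the 23 genes with a mean of 100 or more was 29.0%, and 11 of them had a CV over 30%, against 659 of the 10789 genes in all (6.11%). Jchain, which joins IgM into pentamers, had 20074, 36653 and 84850 normalized counts at its lowest, median and highest and a CV of 49.0%, at 1090 ± 504 TPM (SD, n = 7). Mzb1, a chaperone of IgM assembly, was higher at 1395 ± 166 TPM and more even, at a CV of 14.3%. Ly6c2, a surface protein of plasmablasts, had the highest CV of the list (59.4%; 320, 661 and 1577 normalized counts). Tnfrsf13b, which encodes the receptor TACI, had the lowest (4.96%).

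Surface genes of later plasma cells were low. Sdc1, which encodes the plasma cell marker CD138, had 70 to 206 normalized counts and 2.24 ± 0.80 TPM (SD, n = 7). Tnfrsf17, which encodes the survival receptor BCMA, had 2 to 16 normalized counts and 0.55 ± 0.42 TPM, against 363 ± 32.9 TPM for Tnfrsf13b (SD, n = 7; log2 difference 9.41, in 7 of 7 libraries; exact sign-flip test, adjusted p = 0.0179). So near 0 the size depends on the pseudocount, and with 1 in place of 0.1 the log2 difference was 7.92. Tnfrsf13c, the receptor for BAFF on mature B cells, was at 593 ± 84.5 TPM, above Tnfrsf13b in 7 of 7 libraries by 0.70 on the log2 scale (adjusted p = 0.0179, same exact test). That difference was 0.23 and did not pass without division by length (adjusted p = 0.0646).

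The plasmablast list and the list of endoplasmic reticulum (ER) folding and export moved with the same library. WT replicate 5 was highest in 15 of 23 plasmablast genes (65.2%) and in 25 of 30 ER genes (83.3%), against 17.6% of all genes with a mean of 100 or more. WT replicate 6 was lowest in 23 of the 30 ER genes (76.7%), against 14.3% of all genes. As mean log2 deviation from the gene means, replicate 5 lay at 0.47 for the plasmablast list and 0.39 for the ER list, and the lowest values were -0.37 in replicate 2 and -0.28 in replicate 6. The erythroid list was also highest in replicate 5, at 1.49, and antigen receptor genes took 7.48% of the normalized total there, the highest share of the 7 (4.26% to 7.48%). Replicate 6 had the erythroid list high too, at 1.08, and the ER list at its lowest. The part of these in the result was not tested.

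All 30 ER genes reached 1 TPM in every library, with a median of 150 TPM and a median CV of 16.9%. Hsp90b1, the ER form of HSP90 and a chaperone of Toll-like receptors, had 43580, 54522 and 94209 normalized counts at its lowest, median and highest, and 853 ± 222 TPM (SD, n = 7). Calr, the calcium-binding chaperone calreticulin, was at 801 ± 146 TPM. Hspa5, the main ER chaperone BiP, was at 696 ± 116 TPM, with 39038, 50553 and 67548 normalized counts. In all of these the top library was replicate 5. Herpud1, which helps to degrade misfolded proteins, had the highest CV of the list, 30.4%, and Ssr1, a subunit of the translocon-associated complex, the lowest, 5.12%.

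The ER stress element, CCAAT followed by any 9 bases and CCACG, is the motif through which ATF6 and XBP1 act on chaperone genes. Of 23 ER genes with a RefSeq promoter, 6 held it on either strand within 250 bases before the start (26.1%), against 0.122% of all promoters and 0.174% of those of genes with a mean of 100 or more: Calr, Canx, Dnajc3, Hsp90b1, Hspa5 and Pdia6. The element contains the CCAAT box by its own letters. The Hsp90b1 promoter (GRCm38.p6, chr10:86705445-86705694, minus strand) held 2 copies, 1 on each strand, and is shown with both in capitals as the highest of these genes.
Hsp90b1: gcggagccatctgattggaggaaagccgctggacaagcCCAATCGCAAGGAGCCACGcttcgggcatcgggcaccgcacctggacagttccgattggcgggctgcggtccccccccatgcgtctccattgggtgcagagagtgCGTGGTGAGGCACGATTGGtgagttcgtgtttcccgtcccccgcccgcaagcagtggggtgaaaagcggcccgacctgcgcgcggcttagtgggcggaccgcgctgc
The first copy reads on the strand of the gene and the second on the opposite strand.

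**Figure D3:**
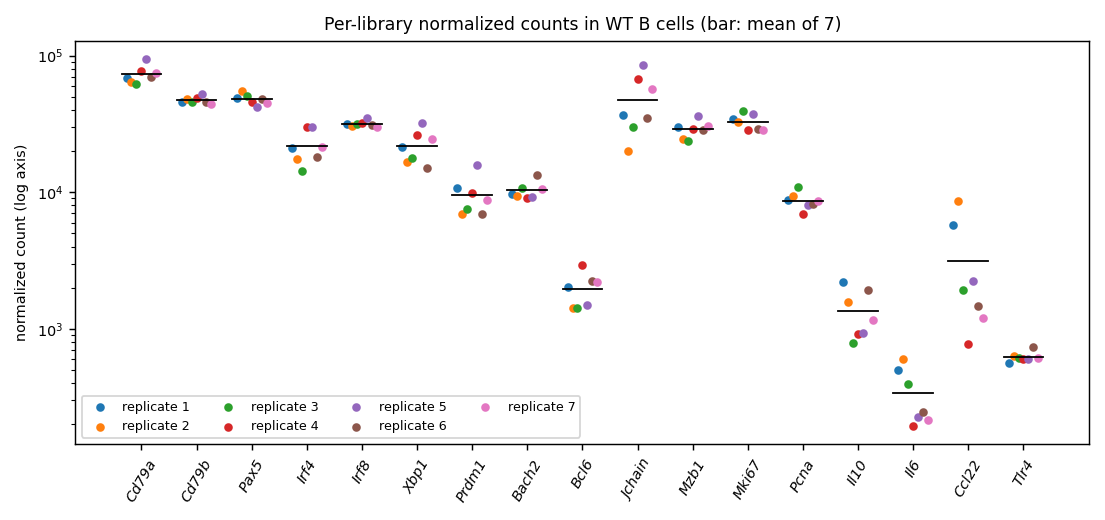
Normalized counts (log axis) of 17 genes in each of the 7 WT libraries, coloured by replicate, with the mean of 7 as a bar. Cd79b, Irf8 and Tlr4 lie close together, while Jchain, Prdm1 and Ccl22 spread widely, with replicate 5 on top for Jchain and Prdm1 and replicate 2 for Ccl22.

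Among heavy chain constant regions, IgM stood far above the rest. Ighm exceeded Ighd, the constant region of IgD that resting B cells carry beside IgM, by 109-fold in level (48256 ± 10289 against 458 ± 153 TPM, SD, n = 7; 7 of 7 libraries; exact sign-flip test, adjusted p = 0.0179). Ighd had 8522, 16988 and 20228 normalized counts at its lowest, median and highest, lowest in replicate 5, where Ighm was highest. Both IgG classes known from LPS cultures were present. Ighg3 was at 194 ± 36.9 TPM and Ighg2b at 484 ± 108 TPM (SD, n = 7), with Ighg3 lower in 7 of 7 libraries by a log2 difference of -1.31 (exact sign-flip test, adjusted p = 0.0179). Classes tied to other signals were lower: Ighg2c was at 27.5, Ighg1 at 19.99, Igha at 7.80 and Ighe at 1.83 TPM. Ighg2c was the least even of them, at 1587 normalized counts in replicate 3 and 172 to 919 elsewhere (CV 81.5%). Counts over a constant region do not separate membrane from secreted forms, nor switched from germline transcripts, which start before the switch.

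Genes of class switch recombination were all present. All 28 genes reached 1 TPM in every library, with a median of 22.3 TPM and a median CV of 9.36%. Parp1, a sensor of DNA breaks, stood at 222 ± 17.2 TPM and the histone gene H2afx at 107 ± 3.02 TPM (SD, n = 7). Rnf168, a ubiquitin ligase at breaks, was among the steadiest genes, with a CV of 3.59%, and Hmces, a guard of abasic sites, was the least steady of the list at 43.6%.

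All 44 genes of G1/S and DNA replication and all 40 of G2/M and mitosis reached 1 TPM in every library, with medians of 30.8 and 40.2 TPM. Pcna, the sliding clamp of replication, had 6880, 8632 and 10946 normalized counts at its lowest, median and highest and 213 ± 40.6 TPM (SD, n = 7). The helicase subunit gene Mcm3 stood at 126 ± 25.6 TPM. Below Mki67, the mitotic list was led by Cks2, a partner of cyclin-dependent kinases, at 143 ± 19.5 TPM and the topoisomerase gene Top2a at 143 ± 21.2 TPM. The D-type cyclins differed: Ccnd2 was at 157 ± 10.9 TPM and Ccnd3 at 24.4 ± 2.19 TPM (SD, n = 7; log2 difference 2.68, and 2.07 with the longest transcript, in 7 of 7 libraries; exact sign-flip test, adjusted p = 0.0179). Of their kinases Cdk4 exceeded Cdk6 by 8.47-fold (104 ± 14.9 against 12.2 ± 1.57 TPM, SD, n = 7; adjusted p = 0.0179, same exact test). Ccne1 exceeded Ccne2 by 1.55-fold, and Ccnb1 was below Ccnb2 with a log2 difference of -0.86, both in 7 of 7 libraries with the same adjusted p. The order of the B cyclins rests on length: without division by length it was 0.60.

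Both cycle lists had their highest and their lowest values in the same libraries. WT replicate 3 was highest in 36 of 44 G1/S genes (81.8%) and 33 of 40 G2/M genes (82.5%), against 21.9% of all genes. WT replicate 4 was lowest in 30 G1/S genes (68.2%) and 35 G2/M genes (87.5%), against 18.1% of all genes. The mean log2 deviations were 0.26 and 0.24 in replicate 3 and -0.23 and -0.27 in replicate 4. The order between these ends was not the same, with replicate 5 at -0.11 for G1/S and 0.03 for G2/M. These libraries differed in other ways too. Replicate 4 had the fewest reads, and replicate 3 the smallest share of antigen receptor genes (4.26%, against 7.27% in replicate 4) and the largest median distance of its genes from their means (0.126 on the log2 scale). The part of these in the result was not tested. The size was modest against the plasmablast genes. Of the cycle genes, 1 of 44 (2.27%) in G1/S and 1 of 40 (2.5%) in G2/M spanned more than 2-fold between libraries. Of the plasmablast genes 14 of 23 (60.9%) did, against 10.3% of all genes. The G1/S gene was Tyms, which makes thymidylate, with 974, 1412 and 2158 normalized counts at its lowest, median and highest. The G2/M gene was Cdc25b, a phosphatase that opens mitosis, with 11035 in replicate 5 and 5273 to 7283 elsewhere.

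**Figure D4:**
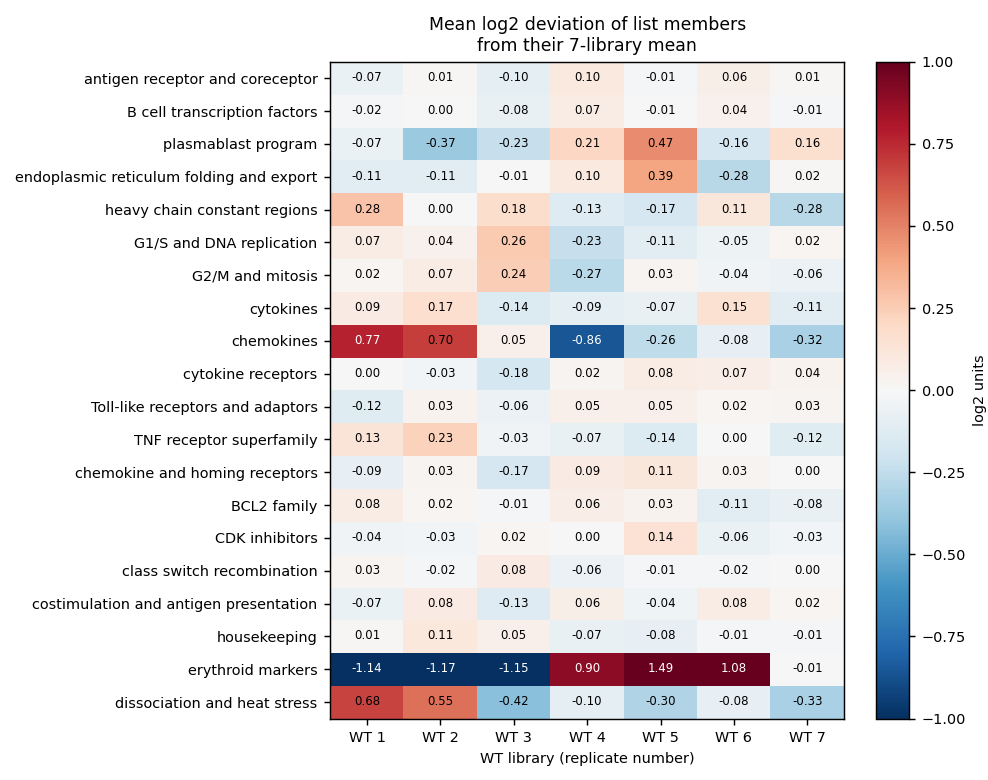
Mean log2 deviation of list members from their own mean over the 7 WT libraries, 1 row a list and 1 column a replicate, over members with a mean normalized count of 100 or more (colours end at 1 in size). Replicate 5 is high for the plasmablast and ER lists, replicate 3 high and replicate 4 low for both cycle lists, and replicates 1 and 2 high for chemokines and stress genes. The chemokine row rests on 3 genes only, Ccl22, Ccl5 and Ccl25. Of these, Ccl25 had its lowest values in replicates 1 and 2 (468.42 and 467.55 normalized counts).

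Many mitotic promoters carry a cell cycle homology region, TTTGAA, near CCAAT boxes, where the DREAM complex and NF-Y bind. RefSeq promoters were at hand for 34 of the 40 G2/M genes; 13 held TTTGAA (38.2%, against 16.3% of all promoters and 10.5% of those of genes with a mean of 100 or more) and 26 held CCAAT (76.5%, against 34.5% and 37.9%), each on either strand, and matches of the pair can share 1 base. Mki67 held both, and its promoter (GRCm38.p6, chr7:135716380-135716629, minus strand) is shown with the 5 matches in capitals: 3 of CCAAT, of which 1 reads ATTGG on the opposite strand, and 2 of TTTGAA.
Mki67: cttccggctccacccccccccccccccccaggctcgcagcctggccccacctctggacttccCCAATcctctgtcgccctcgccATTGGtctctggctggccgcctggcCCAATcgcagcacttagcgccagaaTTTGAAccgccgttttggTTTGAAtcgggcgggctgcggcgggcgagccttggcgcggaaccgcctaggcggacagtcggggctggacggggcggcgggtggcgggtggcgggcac
For G1/S genes the searched letters were TTTCCCGC and TTTGGCGC, forms of the site bound by E2F factors. Of 36 promoters 7 held either form (19.4%, against 1.35% of all and 2.88% of those of genes with a mean of 100 or more): Cdc6, Cdk2, E2f3, Mcm5, Mcm6, Mcm7 and Pola1. The helicase gene Mcm6, at 117 TPM, held TTTGGCGC in 2 copies, shown in capitals (GRCm38.p6, chr1:128359706-128359955, minus strand).
Mcm6: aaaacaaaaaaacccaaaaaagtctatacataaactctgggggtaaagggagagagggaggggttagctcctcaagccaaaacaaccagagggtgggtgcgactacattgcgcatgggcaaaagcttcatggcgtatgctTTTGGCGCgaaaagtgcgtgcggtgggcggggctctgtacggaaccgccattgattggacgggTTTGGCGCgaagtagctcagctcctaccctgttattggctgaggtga

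Brakes on the cycle were present beside its drivers. Of 17 genes in the list of CDK inhibitors and related factors, 16 reached 1 TPM in every library. Btg1 and Btg2, antiproliferative genes of quiescent lymphocytes, stood at 306 ± 18.0 and 227 ± 51.3 TPM (SD, n = 7). Cdkn1b, which encodes p27, was at 94.6 ± 13.6 TPM and Cdkn1a, which encodes p21, at 11.2 ± 2.95 TPM (log2 difference 3.09, and 2.32 with the longest transcript, in 7 of 7 libraries; exact sign-flip test, adjusted p = 0.0179). Cdkn2a, the gene of p16 and p19ARF, was at 19.5 ± 6.08 TPM, with 236, 371 and 531 normalized counts at its lowest, median and highest. In replicates 3 and 4, 2 genes of this list went opposite ways. Cdkn1b was lowest in replicate 3 (5489 normalized counts) and highest in replicate 4 (9244). Ccng1, a p53 target, was highest in replicate 3 (13927) and lowest in replicate 4 (9268). As a list, the mean log2 deviation was 0.14 in replicate 5 and between -0.06 and 0.02 elsewhere.

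Survival genes of the BCL2 family were led by Mcl1, at 534 ± 59.96 TPM (SD, n = 7), 9.01-fold above Bcl2 at 59.3 ± 7.80 TPM. Bcl2l1, which encodes BCL-XL, was below Bcl2 at 27.2 ± 4.89 TPM, with a log2 difference of -1.13. Both held in 7 of 7 libraries (exact sign-flip test, adjusted p = 0.0179 each). Bcl2a1b and Bcl2a1d, targets of NF-kB, stood at 439 and 351 TPM, but these copies are near-identical and reads may be split between them. Bmf, a death-promoting member, was the least even at a CV of 29.0%.

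Cytokine genes ranged from high levels to none. Of 49 genes 17 reached 1 TPM in every library, as did 11136 of 47517 genes in all. A further 26 lay below it in every library, and 3 of these, Il4, Il9 and Il17a, had no read. The highest were Mif, a widely made factor, at 781 ± 117 TPM, Ltb, which encodes lymphotoxin beta, at 263 ± 61.6 TPM, and Il16 at 113 ± 8.18 TPM (SD, n = 7). Il10, which restrains inflammation, had 782, 1162 and 2216 normalized counts at its lowest, median and highest, and Il6 had 194, 247 and 605. In level Il10 exceeded Il6 by 7.46-fold (60.8 ± 24.6 against 8.27 ± 3.96 TPM, SD, n = 7; 7 of 7 libraries; exact sign-flip test, adjusted p = 0.0179). Ltb exceeded its partner Lta by 26.6-fold, and Lta was below Tnf with a log2 difference of -0.98, both in 7 of 7 libraries with the same adjusted p. As a list cytokines were uneven, with a median CV of 31.5% over 17 genes and 9 of them spanning more than 2-fold, against 10.3% of all genes.

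Of 32 chemokine genes 5 reached 1 TPM in every library and 10 had no read. Ccl22, a ligand of Ccr4 on T cells, was the highest at 78.9 TPM and also the most uneven, with 776, 1933 and 8584 normalized counts at its lowest, median and highest. It was high in replicates 1 and 2, at 5748 and 8584, and between 776 and 2234 elsewhere. Ccl5 had 217, 553 and 980. Ccl3 and Ccl4, closely related chemokines of activated cells, stood at 5.23 ± 1.81 and 4.61 ± 2.81 TPM (SD, n = 7) and did not differ beyond their spread (higher in 5 of 7; log2 difference 0.32; exact sign-flip test, adjusted p = 0.167). Tnf and Il6 were also highest in replicate 2, and the immediate early genes Egr1 and Fos, named after their values were seen, were high in the same libraries: Egr1 had 25231 and 24670 normalized counts in replicates 1 and 2 and 2121 to 6530 elsewhere, and Fos 863 and 656 against 96.8 to 254. Egr1 belongs to the list of dissociation and heat stress genes, so the list is not a separate observation. This list lay at 0.68 and 0.55 on the log2 scale in replicates 1 and 2 and between -0.42 and -0.08 elsewhere. Its part in the cytokine and chemokine values was not tested.

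The receptor for LPS itself was a low gene. Tlr4 had 562, 608 and 739 normalized counts at its lowest, median and highest, and 6.58 ± 0.80 TPM (SD, n = 7), and Ly96, its partner MD-2, stood at 11.1 ± 0.76 TPM. Cd180, which encodes RP105, exceeded Tlr4 by 13.05-fold at 86.9 ± 8.70 TPM, and its partner Ly86, which encodes MD-1, exceeded Ly96 by 11.8-fold at 133 ± 20.4 TPM (7 of 7 libraries each; exact sign-flip test, adjusted p = 0.0179). The CVs of these genes lay between 6.74% (Ly96) and 12.5% (Ly86). Cd14, a coreceptor for LPS on myeloid cells, was at 0.42 TPM. Of the receptors for nucleic acids, Tlr9 was below Tlr7 (68.3 ± 11.5 against 121 ± 10.8 TPM, SD, n = 7; log2 difference -0.84; adjusted p = 0.0179, same exact test), and Unc93b1, which carries both to endosomes, was at 573 ± 36.3 TPM. Of the 31 genes of the list 24 reached 1 TPM in every library, with a median CV of 9.65%.

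Among 50 cytokine receptor genes 31 reached 1 TPM in every library. Il21r was the highest at 410 ± 23.1 TPM, with Il2rg, the common gamma chain it pairs with, at 382 ± 20.1 TPM and Il10ra at 218 ± 26.9 TPM (SD, n = 7). Il4ra was below Il21r with a log2 difference of -2.77, at 60.3 ± 5.82 TPM, and Ifngr1 was below Ifnar1 with -0.57 (7 of 7 libraries each; exact sign-flip test, adjusted p = 0.0179). Il2rg had a CV of 4.13% and Il21r of 4.88%, while Il1r2, a decoy for interleukin 1, spread from 136 to 502 normalized counts. In the TNF receptor superfamily 13 of 28 genes reached 1 TPM in every library, led by Tnfrsf13c, Tnfrsf13b and Cd40. Cd40, through which T cells help B cells, exceeded the death receptor gene Fas by 0.93 on the log2 scale (61.7 ± 7.40 against 32.6 ± 6.29 TPM, SD, n = 7; 7 of 7; adjusted p = 0.0179, same exact test).

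Homing receptors of follicular B cells were among the higher receptor genes. Of 41 genes 25 reached 1 TPM in every library, among them the integrin gene Itgal at 261 ± 22.8 TPM (SD, n = 7). Ccr7, which guides cells to T zones, exceeded Ccr6 by 1.76-fold and Gpr183 by 2.86-fold, and Cxcr5, the receptor of follicles, exceeded Cxcr4 by 3.34-fold (212 ± 28.5 against 65.0 ± 17.7 TPM), each in 7 of 7 libraries (exact sign-flip test, adjusted p = 0.0179). Ccr7 had 5197 normalized counts in replicate 5, its lowest, and 11312 in replicate 1. Costimulation and antigen presentation genes all reached 1 TPM, 22 of 22, led by B2m at 5220 ± 358 TPM and the class II genes H2-Eb1 and H2-Aa at 2123 ± 196 and 1330 ± 107 TPM. Cd86 exceeded Cd80, the other ligand of CD28, by 3.73-fold in 7 of 7 libraries (46.4 ± 10.4 against 12.3 ± 2.60 TPM, SD, n = 7; adjusted p = 0.0179, same exact test).

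**Figure D5:**
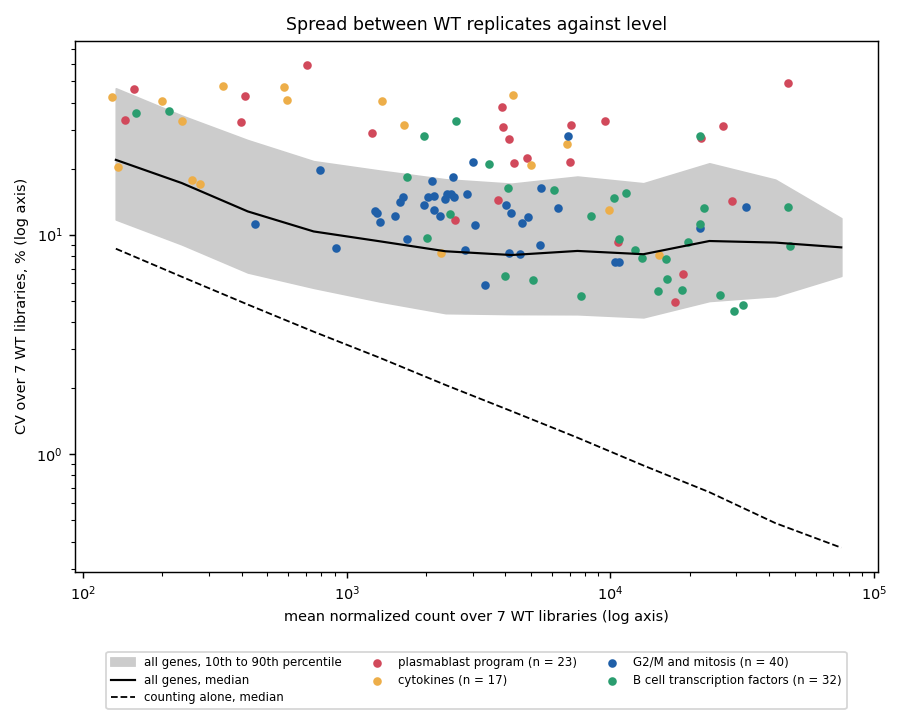
Spread over the 7 WT libraries (CV in percent, log axis) against mean normalized count (log axis), with the median and the 10th to 90th percentile of all genes, the median CV from counting alone (dashed), and the genes of 4 lists. Plasmablast genes and cytokines lie mostly high, with median CVs of 29.0% and 31.5%, against 12.9% for G2/M genes, 10.4% for B cell factors and 10.2% for all genes.

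Spread fell with level down to a floor. The median CV was 33.1% for genes with a mean of 10 to 100, 13.7% for 100 to 1000, 8.61% for 1000 to 10000 and 8.66% above, while counting alone would give 18.6%, 4.76%, 2.01% and 0.77%. Above 1000 normalized counts the spread between libraries was thus several times the counting error. The steadiest gene with a mean of 1000 or more was Arpc1a, a subunit of the actin-branching complex, at 3699, 3766 and 3816 normalized counts and a CV of 1.14%. Next came the splicing factor gene Prpf6 at 1.51%, the GTPase gene Rhoa at 1.6%, G3bp2 at 1.66% and Dicer1, the microRNA processing enzyme, at 1.72%. Counting alone would give 1.63% for Arpc1a and 1.69% for Prpf6, more than their CVs. All were picked as the lowest CVs, which favours such low values. Housekeeping genes as a list had a median CV of 8.98%, against 10.2% for all genes with a mean of 100 or more. Of these 17 genes, 0 spanned more than 2-fold between libraries, against 10.3% of all genes. Eef1a1, a translation elongation factor, was at 15948 TPM, and Tfrc, the transferrin receptor, had the highest CV of the list at 23.5%.

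Among the widest spreads were those of Y-linked genes and of genes high in a lone library. The X-linked Xist was not among the 10 highest, at a CV of 71.2%. Xist, the RNA of the inactive X chromosome, had 107178 to 161721 normalized counts in WT replicates 1 to 5 and 5 and 8 in replicates 6 and 7. The Y-linked genes Eif2s3y, Ddx3y, Kdm5d, Uty and Erdr1 had no read in replicates 1 to 5 and between 1751 and 5830 in replicates 6 and 7, which made up 5 of the 10 highest CVs among genes with a mean of 100 or more, outside antigen receptor segments and predicted genes. Sema4f, a semaphorin gene, had 703 normalized counts in replicate 3 and 1 to 6 elsewhere. Loxl3, a lysyl oxidase gene, had 1160 in replicate 2 and 39 to 98 elsewhere, and Ctse, an aspartic protease gene, 6939 in replicate 1 and 383 to 712 elsewhere. The other 2 of the 10 were the interferon-induced GTPase gene Iigp1, from 5 to 508, and the metallothionein gene Mt1, from 5 to 546. Such genes were few, by a rule set after the values were seen. Of 11212 genes with 100 or more in some library, 23 stood 3-fold or more above the next library. Some of these passed the filter only through the library where they were high. Shroom4, for example, had 115 in replicate 3 and 0 to 1.05 elsewhere. Of the 10789 genes with a mean of 100 or more, 25 stood as far below the next library. The filters differ, so the 2 counts are not to be compared. WT replicate 7 had 0 of either kind, and replicate 6 had 0 above and 3 below.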

How the data were processed

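RNA of 7 WT samples of LPS-stimulated mouse splenic B cells was analysed. The values are a signal deposited by the authors as normalized gene counts, not raw counts; the WT columns each matched 1 sample by name; the 6 columns of the other genotype were not used. Tools named per the submitters' processing notes are DESeq2 1.10.1, RSEM 1.2.28 and STAR 2.5.1b; 2 builds, mm9 and GRCm38, are named as well, and the use of each is not given in the sources used here. Within each WT library 100% of the lower deposited signal values were whole multiples of the value of 1 read (to within 0.05 reads). The highest values were not checked in this way. Division by the value of 1 read, with rounding, gave the reads taken for each gene and the spread that counting alone would give. Reads were not marked with molecular identifiers, so counting errors cover counting only.

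Per-length levels (TPM) were computed here from the deposited normalized counts and the union exon length of each gene in GENCODE M21 (GRCm38), found for 99.1% of identifiers; genes without a length held 0.0601% of the reads. Where 2 identifiers shared a symbol (118 symbols), the identifier with the higher mean was used. The union of all exons can overstate the length of the main transcript. Pairs of genes were compared in the same library by an exact sign-flip permutation test, two-sided, on log2(TPM + 0.1), with Benjamini-Hochberg adjustment over 31 pairs and a threshold of 0.05. Levels, ranks, CVs, list deviations and motif counts are descriptions with no test.

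The 28 lists hold 646 genes, of which 645 were in the table. Genes named were the markers, both genes of each pair, of each list the 3 highest in level with the highest and lowest CV (of lists of other cells and technical lists the 2 highest in level), the 10 highest levels, the 10 highest and 5 lowest CVs over all genes (at a mean of 100 or more, and of 1000 or more for the lowest), and all heavy chain constant regions; this gave 164 genes, and others are cell type markers, motif matches or named as seen afterwards. The WT samples, lists and pairs were chosen with earlier results of these data known. Promoters come from RefSeq (GRCm38.p6). The spread and pair computations were tested on simulated data. Python 3.11.15 with numpy 2.4.6, pandas 2.3.3 and matplotlib 3.10.9, and edgeR 4.0.16 in R 4.3.3 for an alternative measure of spread, were used. Other alternatives were the length, the pseudocount, the scaling, the filter and each library left out. A few genes that this rule names are not reported here.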

Additional observations from a re-analysis of the deposited data

Results flagged for a closer look

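Of 190 results looked at, 25 (13.2%) had a highest or lowest library set apart from the other 6 by more than 0.568 of the whole range, Dixon's limit for 7 samples; chance gives about 1 in 20. The 190 results were the 164 named genes and the mean deviations of lists. Many of these genes were named for a high CV, over all genes or in their list (Sema4f, Loxl3, Ctse, Iigp1, Ly6c2, Cdc25b and Ccr9 among the 25). Such naming favours a gap of this kind, so the shares are not to be compared. WT replicate 5 was the library set apart, on the high side, in 13 of the 25. The gap as a share of the range is given for each.

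Genes of the plasmablast and ER groups were high in replicate 5: Prdm1 at 0.583 (15880 normalized counts, against 6975 to 10692 elsewhere), Ly6c2 at 0.645, Hsp90b1 at 0.637 and Hspa5 at 0.568. High in the same library were Irf8 at 0.624, Ltb at 0.577, the mitotic phosphatase gene Cdc25b at 0.651, the gut homing receptor gene Ccr9 at 0.732 (418 against 68 to 162), B2m at 0.735, the integrin gene Itgb3 at 0.691 and the interferon-induced gene Iigp1 at 0.646. The mean deviations of the CDK inhibitors list, at 0.587, and of the megakaryocyte markers list, at 0.589, were also highest there; the megakaryocyte value rested on Itgb3 alone.

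In replicate 6 Bach2 stood apart at 0.612 (13429 normalized counts, against 9066 to 10759 elsewhere) and Tlr4 at 0.580. In replicate 3 Ccne2 was high at 0.596, Igha at 0.572 and Sema4f at 0.993, while Rpl13a was low at 0.695 and the cytokine receptors list low at 0.601. In replicate 2 Loxl3 was high at 0.948, the stem cell factor receptor gene Kit at 0.572 and mt-Atp8 at 0.805, the last a mitochondrial gene whose reads can be shared with nuclear copies. In replicate 1 Ctse was high at 0.950 and Pf4 at 0.705, on 40 normalized counts for Pf4.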

How the results depend on the processing

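Between genotypes, no paired analysis was possible because only WT samples were used and no groups were compared. The sign-flip test of gene pairs was itself paired, with both genes of a pair read in the same library. Of the 31 gene pairs, none changed its call with a pseudocount of 1. Without division by length the log2 difference turned for Prdm1 against Bach2 (-0.16), Xbp1 against Pax5 (-1.17) and Ccnb1 against Ccnb2 (0.60). That setting also ended the call of Ikzf1 against Ikzf3 (0.21) and Tnfrsf13c against Tnfrsf13b (0.23), gave one to Irf4 against Irf8 (-0.59), and moved these by more than 1.5-fold in the same direction: Cdk4 against Cdk6 (0.99), Mcl1 and Bcl2l1 against Bcl2 (1.75 and -2.13), Il10 against Il6 (2.03), Il4ra against Il21r (-1.92), Ifngr1 against Ifnar1 (-1.63), Ly86 against Ly96 (5.40), Tnfrsf13b against Tnfrsf17 (11.6), Cd40 against Fas (1.66) and Cxcr5 against Cxcr4 (2.62). Leaving out replicate 3 turned Irf4 against Irf8, which ranged from -0.15 to 0.031 with each library left out. With the longest transcript 27 pairs kept their call, 2 gained it (Irf4 against Irf8 at -1.05, Xbp1 against Pax5 at 0.74) and 2 lost it (Ikzf1 against Ikzf3 at 0.05, Ccnb1 against Ccnb2 at -0.10); gene models set these orders. The number of pairs that passed lay between 27 and 28 with each library left out.

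At a level of 10 TPM or more in every library there were 7154 genes, against 11136 at 1 TPM, and 11146 to 11215 with each library left out. The median spread of all genes was 12.2% as the square root of edgeR's tagwise dispersion, which is another measure than the CV. The median CV was 8.61% for genes with a mean of 1000 or more, against 10.2%, and 9.43% to 10.6% with each library left out. The median CV of the plasmablast list lay between 22.9% and 31.97% and that of the ER list between 11.1% and 18.4%. Scaling without antigen receptor genes moved 16 of 18 list medians by more than their spread, each upward. This setting takes those genes out of the sum only. It therefore raises every level in a library by the same factor, and the order of genes within a library cannot change. Genes with a mean of 10 to 100 normalized counts had a counting error of 18.6% at the median, which limits what low cytokine, chemokine and receptor genes can show.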

Other observations

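Further genes with a lone high or low library, chosen after their values were seen, are given as values. Ldhb, a subunit of lactate dehydrogenase, had 571 normalized counts in WT replicate 5 and 4.80 to 15.7 elsewhere. In the same library Ccnd1, the D-type cyclin that B cells mostly lack, had 159, against 0 to 10.5 elsewhere, Tmed6, a cargo receptor gene of the secretory route, had 2808, against 550 to 860, and the peptide transporter gene Slc15a2 had 316, against 1706 to 3327. Klf8 had 1272 in replicate 3 and 158 to 275 elsewhere. Msrb3, a methionine sulfoxide reductase gene, had 8.72 in replicate 1 and 646 to 1414 elsewhere, and Igf2bp3, an RNA-binding gene of fetal cells, had 2.86 in replicate 2 and 69.6 to 447 elsewhere.

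Pydc3, an interferon-induced gene with near-identical neighbours, fell into high and low libraries: 942, 1650, 2358 and 2067 normalized counts in replicates 1, 4, 6 and 7, and 39.0, 36.3 and 32.3 in replicates 2, 3 and 5. Mybl1, a MYB family gene of germinal center B cells, had 1418 and 2271 in replicates 3 and 5 and 385 to 585 elsewhere.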
